A study of Mus musculus with 175 samples.

Results

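Plek, Gng11, Rgs18, Selp, F2r, F2rl2, Treml1 and Mmrn1 encode proteins that carry or answer signals in platelets, and their reads were followed in single progenitors of the mouse fetal liver. The 8 genes were given as a list of symbols, 8 of the 49585 mouse features in the deposited count table, and each symbol matched 1 feature. They were chosen by their pooled CPM (counts per 1000000 reads on mouse genes) in these same cells, so the differences between populations that follow are a description and carry no test. Livers of 2 litters of E14.5 embryos, 14.5 days after fertilization and from a C57BL/6 by ICR cross, were pooled and sorted into single cells. All embryos carried Runx1 reporters, in which GFP stands at the distal P1 promoter and human CD4 (hCD4) at the proximal P2 promoter of Runx1. The genotype label spells this P2-GFP::P2-hCD4/+ and the extraction text P1-GFP::P2-hCD4/+. Megakaryocyte-erythroid progenitors (MEPs; Lin- SCA1- C-KIT+ CD16/32 low CD34-) and common myeloid progenitors (CMPs; the same with CD34+) were both gated as CD41- CD150+, and hCD4 then divided each into P2- and P2+ cells.

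After filtering 172 of 175 cells remained, 56 P2- and 47 P2+ cells of the MEP gate and 27 P2- and 42 P2+ cells of the CMP gate. Each population came from 1 pool, so cells are not replicates and no population has one. The CD41- gate removes progenitors that already bear the megakaryocyte integrin CD41, so cells that display that protein were not sampled. Reads on mouse genes lay between 295064 and 1540631 per cell, and the median cell had 520540, 624148, 637603 and 804632 of them. Here and throughout, 4 values in a row are given with MEPs before CMPs and, within each, P2- before P2+. The CMP labels low and high were read as P2- and P2+, and 1 P2- CMP has a subtype label that names MEP. Erythroid markers, 13 genes with Klf1 and Rhag among them, summed to 2481, 1371, 844 and 440.3 CPM, although the globin gene Hbb-bt was higher in CMPs, at 9.51, 9.79, 232.2 and 120.6. Between the MEP populations 8 of the 13 were at least 2-fold lower in P2+ cells and 2 were higher, Car1 (110.6 and 299.7 CPM) and Alas2 (1.08 and 4.18). The sum was thus highest in P2- MEPs, and its part in the differences below was not tested. The 15 megakaryocytic markers summed to 261.3, 882, 869 and 854 CPM, but Ppbp was at 0 reads throughout and Pf4, which encodes platelet factor 4, did not pass 7.76 CPM. CD41 itself is encoded by Itga2b, whose RNA was read in all 4 populations despite the gate, at 33.6, 103, 32.02 and 39.1 CPM.

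Platelets answer thrombin through protease-activated receptors, which thrombin switches on by cutting off their own outer end. The receptors act through heterotrimeric G proteins, RGS proteins shorten the G protein signal, and downstream kinases phosphorylate pleckstrin and set off the release of alpha granules, whose membrane and cargo include P-selectin, the TREM-like receptor TREML1 and multimerin. In the mouse, platelets are known to signal to thrombin through the receptor encoded by F2rl3, with the F2rl2 product as its cofactor, whereas F2r encodes the receptor that human platelets use and mouse platelets lack. F2rl3 is not among the 8 genes and is given beside them for that reason.

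The stretches upstream of 4 of the genes are shown because their letters can be read beside the levels: the thrombin receptors F2r and F2rl2, and Plek and Mmrn1, which of the 8 differed most between the MEP populations among those read in both. They are RefSeq sequences on GRCm38.p6, written 5' to 3' on the gene's own strand and stopping at the first base of an annotated exon. Capitals mark matches, on either strand, to GATAA (the GATA family), AGGAAG (the ETS family) and TGTGGT (the RUNX family). The F2r stretch lies at chr13:95618488-95618716 on the minus strand, F2rl2 at chr13:95696670-95696852 on the plus strand, Plek at chr11:17008719-17008968 on the minus strand and Mmrn1 at chr6:60944067-60944316 on the plus strand.
F2r: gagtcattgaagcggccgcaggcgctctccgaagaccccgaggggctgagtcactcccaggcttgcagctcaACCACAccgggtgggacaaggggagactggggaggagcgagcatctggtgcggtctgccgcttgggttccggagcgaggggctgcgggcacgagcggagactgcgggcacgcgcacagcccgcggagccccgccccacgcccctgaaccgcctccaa
F2rl2: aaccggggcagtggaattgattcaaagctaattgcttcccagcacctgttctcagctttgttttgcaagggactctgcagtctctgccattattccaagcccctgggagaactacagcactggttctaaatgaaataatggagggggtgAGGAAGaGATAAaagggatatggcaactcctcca
Plek: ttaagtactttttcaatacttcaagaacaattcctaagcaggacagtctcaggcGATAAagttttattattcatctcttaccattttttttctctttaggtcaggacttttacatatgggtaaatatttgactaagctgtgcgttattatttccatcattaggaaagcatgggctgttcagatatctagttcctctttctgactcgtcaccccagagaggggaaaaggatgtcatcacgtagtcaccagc
Mmrn1: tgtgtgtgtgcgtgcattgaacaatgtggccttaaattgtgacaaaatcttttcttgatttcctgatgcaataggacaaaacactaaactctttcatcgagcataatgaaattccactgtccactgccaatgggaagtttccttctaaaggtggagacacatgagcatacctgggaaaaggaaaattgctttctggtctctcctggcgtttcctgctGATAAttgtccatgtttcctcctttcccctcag
In the 250 bases before the RefSeq start, GATAA was found for Plek, F2rl2 and Mmrn1, 3 of the 6 genes with an entry, and in 22.6% of 32851 promoters. AGGAAG was found for Selp and F2rl2, and in 29.5% of promoters, and TGTGGT for F2r, and in 14.05%. Upstream of F2rl2 the AGGAAG stands 1 base before GATAA, a spacing that the pattern AGGAAGNGATAA found in 11 of the 32851 promoters. That pattern is the F2rl2 arrangement itself, so a low count follows from its choice. Both motifs anywhere in the 250 bases were found in 2163 promoters, or 6.58%. Treml1 had no match, and Gng11 and Rgs18 had no entry. The RefSeq starts of Plek and Mmrn1 lie inside the longer gene models of GENCODE. A match is only a run of letters.

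F2r (ENSMUSG00000048376.5, chromosome 13, 95601803 to 95618487, minus strand, on GRCm38 like all gene positions below) had reads in more cells than the other 7 genes, 148 of 172. Its CPM in single P2- MEPs ran from 0 through a median of 30.9 to 211.8, and in P2+ MEPs from 0 through 127 to 900.4. In P2- CMPs the median was 106 and the highest cell 549.7. P2+ CMPs had a median of 99.97 and a highest cell of 631. The P2- MEPs stood low and the other 3 populations were closer to each other, with single cells overlapping between all 4. Summed over cells, F2r was at 38.2 CPM (exact 95% Poisson interval 36.04 to 40.4), 167 (163 to 172), 135 (129.9 to 141) and 143 (139 to 147). P2+ MEPs were thus 4.38-fold above P2- MEPs, and P2+ over P2- in CMPs was 1.06-fold, log2 0.08 (0.01 to 0.15). All such intervals cover counting error only, since copies made by PCR are counted as separate reads. To set the populations at 1 depth, cells were thinned to 100000 reads, and F2r was then read in 39 of 56, 41 of 47, 23 of 27 and 36 of 42 cells. Most P2- MEPs thus also had F2r, and the shares of the MEP populations, 69.6% (Clopper-Pearson 55.9 to 81.2) and 87.2% (74.3 to 95.2), overlapped in their intervals.

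F2rl2 (ENSMUSG00000021675.4, chromosome 13, 95696853 to 95702739, plus strand), in contrast, was read in few cells and not at all in P2- MEPs. The 56 P2- MEPs had 0 reads, which at 3 reads allows 0.0980 CPM over the population and, at 3 cells, a share of up to 5.36% of cells with a read, which is no limit on cells that express the gene. In P2+ MEPs 13 of 47 cells (27.7%, 15.6 to 42.6) had F2rl2, compared with 4 of 27 and 7 of 42 in P2- and P2+ CMPs. The median cell was at 0 in every population, while the highest reached 527 CPM among P2+ MEPs and, among CMPs, 65.9 in P2- and 398 in P2+ cells. F2rl2 was thus carried by a minority of cells with many reads, 114 CPM in the median F2rl2-positive P2+ MEP and 158 in the median positive P2+ CMP. Summed levels were 0, 35.3 (33.3 to 37.5), 6.22 (5.13 to 7.47) and 31.97 CPM (30.2 to 33.9). P2+ MEPs were at least 360.6-fold higher than P2- MEPs, and P2+ CMPs 5.14-fold higher than P2- CMPs. A single cell held 50.9% of the 114 reads of P2- CMPs, and without the highest cell of each population the log2 ratio in CMPs was 3.07 in place of 2.36. The intervals of P2+ MEPs and P2+ CMPs overlapped, and without the highest cells their order turned, to 25.3 and 26.96 CPM. F2rl2 lies within the span of Iqgap2, which differed little between P2+ and P2- MEPs (log2 0.39) and gives no exon that overlaps F2rl2.

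F2rl3, the signalling partner of F2rl2 on mouse platelets, followed the same order in MEPs, at 4.21 and 37.2 CPM, and was at 29.1 and 61.1 in CMPs. One P2- MEP held 42.6% of the F2rl3 reads there, and without the highest cell of each population the log2 ratio in MEPs was 3.74 in place of 3.14. Reads of all 3 thrombin receptors in a single thinned cell were found in 0, 7, 2 and 4 cells. F2r was the sole receptor read in 36 of 56, 18 of 47, 9 of 27 and 11 of 42 cells. All F2rl2-positive cells also had F2r, 13 of 13, 4 of 4 and 7 of 7 in the 3 populations that had any, and F2r was read in most cells of each. The fourth receptor of the family, F2rl1, was at 0 reads in all 4 populations.

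Gng11 (ENSMUSG00000032766.9, chromosome 6, 4003904 to 4008445, plus strand) encodes a gamma subunit of heterotrimeric G proteins and set the P2+ CMPs apart. The lowest cell was at 0 CPM everywhere, the median cell at 0, 0, 28.4 and 63.8, and the highest at 45.5, 211.99, 113 and 381.6. The highest cells of the P2+ CMPs lay above all others, and cells without a read occurred in all 4 populations. Summed levels were 2.84 CPM (2.28 to 3.51), 27.3 (25.5 to 29.2), 27.98 (25.6 to 30.5) and 90.5 (87.5 to 93.7), so P2+ MEPs and P2- CMPs were within each other's interval. One P2- MEP held 36.8% of the reads there, and without it the level was 1.84 CPM. P2+ over P2- was 9.62-fold in MEPs and 3.24-fold in CMPs, and P2+ CMPs were 3.31-fold above P2+ MEPs. At equal depth 5 of 56, 14 of 47, 14 of 27 and 35 of 42 cells had a read. P2+ MEPs and P2- CMPs thus came to nearly the same level from 29.8% and 51.9% of their cells. Of 18 G protein subunits listed, Gng11 included, 4 were at least 2-fold higher in P2+ MEPs (Gnaz, Gnb4 and Gnb5 were the others), and the gamma subunits Gng5 (249.6 and 275.4 CPM) and Gng12 (38.2 and 30.3) were among those that were not.

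Rgs18 (ENSMUSG00000026357.3, chromosome 1, 144752683 to 144775435, minus strand) encodes a GTPase-activating protein that is abundant in platelets and shuts off Gi and Gq subunits. The lowest cell was at 0 in every population, the median cell at 0, 33.1, 78.4 and 55.6 CPM, and the highest at 97.3, 598, 187 and 245.2 CPM. The P2- MEPs were again lowest, although 22 of 56 had a read at equal depth, against 27 of 47, 20 of 27 and 33 of 42. Summed levels were 14.5 CPM (13.2 to 15.9), 60.9 (58.2 to 63.7), 74.4 (70.6 to 78.5) and 72.7 (69.96 to 75.5). P2+ MEPs were 4.20-fold above P2- MEPs, while in CMPs the interval of the log2 ratio spanned 0, at -0.03 (-0.13 to 0.06). Among the other RGS genes, Rgs2 was a gene of CMPs, at 5.98, 9.69, 95.5 and 142 CPM, and Rgs10 went the other way between compartments, from 136 and 112 in MEPs to 19.96 and 20.7 in CMPs. Rgs1, of the same family, was at 0, 8.08, 5.18 and 21.7 CPM.

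Plek (ENSMUSG00000020120.15, chromosome 11, 16971206 to 17052381, minus strand) encodes pleckstrin, a major substrate of protein kinase C in platelets. In P2- MEPs 4 of 56 cells had reads, and the highest held 70.8 CPM. The median cell was at 0, 39.7, 10.4 and 40.2 CPM, and the highest in the other populations at 563, 324.1 and 423. Cells without a read remained in all 4 populations. The summed level was 2.55 CPM (2.01 to 3.18) in P2- MEPs and 91.1 (87.8 to 94.4) in P2+ MEPs, a 35.7-fold difference. One P2- MEP held 34.6% of the reads there, and without it the level was 1.69 CPM. P2- CMPs were at 49.03 CPM (45.9 to 52.3) and P2+ CMPs at 72.1 (69.3 to 74.9), 1.47-fold apart. Shares were nearly equal outside the P2- MEPs, with 28 of 47, 17 of 27 and 25 of 42 cells. Its exons share 4.44% of their bases with Cnrip1, at 0.294, 4.69, 45.1 and 64.3 CPM, and without strand the reads of that stretch cannot be told apart. The sister gene Plek2 did not follow Plek, at 9.18, 6.27, 0 and 5.97 CPM.

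Treml1 (ENSMUSG00000023993.6, chromosome 17, 48359916 to 48367176, plus strand) encodes a receptor of alpha granule membranes with an inhibitory ITIM motif in its tail. The median cell was at 0, 24.04, 0 and 8.26 CPM, with the highest cells at 49.8, 352.5, 109.6 and 265.6. The highest P2+ cells thus lay above the highest P2- cells in both compartments, but most of the ranges overlapped. The median P2+ MEP lay below the highest P2- MEP, and the upper quartile of P2+ CMPs, 74.03 CPM, below the highest P2- CMP. Summed levels were 6.21 CPM (5.36 to 7.16), 59.4 (56.8 to 62.2), 23.8 (21.7 to 26.2) and 50.6 CPM (48.3 to 52.96). P2+ over P2- came to 9.58-fold in MEPs and 2.12-fold in CMPs. At equal depth 11 of 56, 24 of 47, 12 of 27 and 21 of 42 cells had a read. In CMPs the shares were close, 44.4% and 50%. Without thinning, the median cell with reads stood at 59.6 CPM in P2- and 72.3 in P2+ CMPs, less apart than the summed levels. The highest P2+ CMPs reached further above the P2- CMPs, as given above. The related gene Treml2 was read at 26.6, 74.9, 46.6 and 49.6 CPM.

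Mmrn1 (ENSMUSG00000054641.10, chromosome 6, 60924976 to 60989378, plus strand) encodes multimerin, an alpha granule protein that binds factor V. Its reads lay mainly in CMPs. P2- MEPs gave 1 read in 1 of 56 cells. The median cell was at 0, 0, 0 and 28.04 CPM, and the highest cell at 2.42, 274.3, 190.5 and 313.9. At equal depth 10 of 47 P2+ MEPs had a read, a lower share than the 13 of 27 and 27 of 42 CMPs. Summed levels were 0.0327, 21.6 (20.04 to 23.3), 40.7 (37.9 to 43.8) and 50.5 CPM (48.2 to 52.8), rising through P2+ MEPs to both CMPs. The ratio of P2+ over P2- MEPs, log2 9.37, rests on that 1 read and its interval runs from 6.89 to 14.7. In CMPs it was 0.31 (0.18 to 0.43), and P2+ CMPs exceeded P2+ MEPs 2.33-fold.

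Selp (ENSMUSG00000026580.16, chromosome 1, 164115264 to 164150026, plus strand) encodes P-selectin, which sits in alpha granules until platelets are activated and also in endothelial granules. It was all but silent here. Neither MEP population gave a read, and at 3 reads over a population this allows up to 0.0980 and 0.0950 CPM. One P2- CMP held 43 reads and 1 P2+ CMP held 5, and these 48 reads were all there were. The cell with 43 reads had none of Plek, F2r, F2rl2, Treml1 or Mmrn1 but 161 of Esam and 180 of Tie1, genes of endothelium and of early blood progenitors, with 0 of Kdr and Cdh5, whereas the cell with 5 reads had reads of all 8 genes. Exons of Selp share 14.1% of their bases with Gm16548 and Gm16587. Without these 2 cells Selp was at 0 in all 4 populations, so its ratios rest on single cells and the counts below are also given for the other 7 genes.

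**Figure D1:**
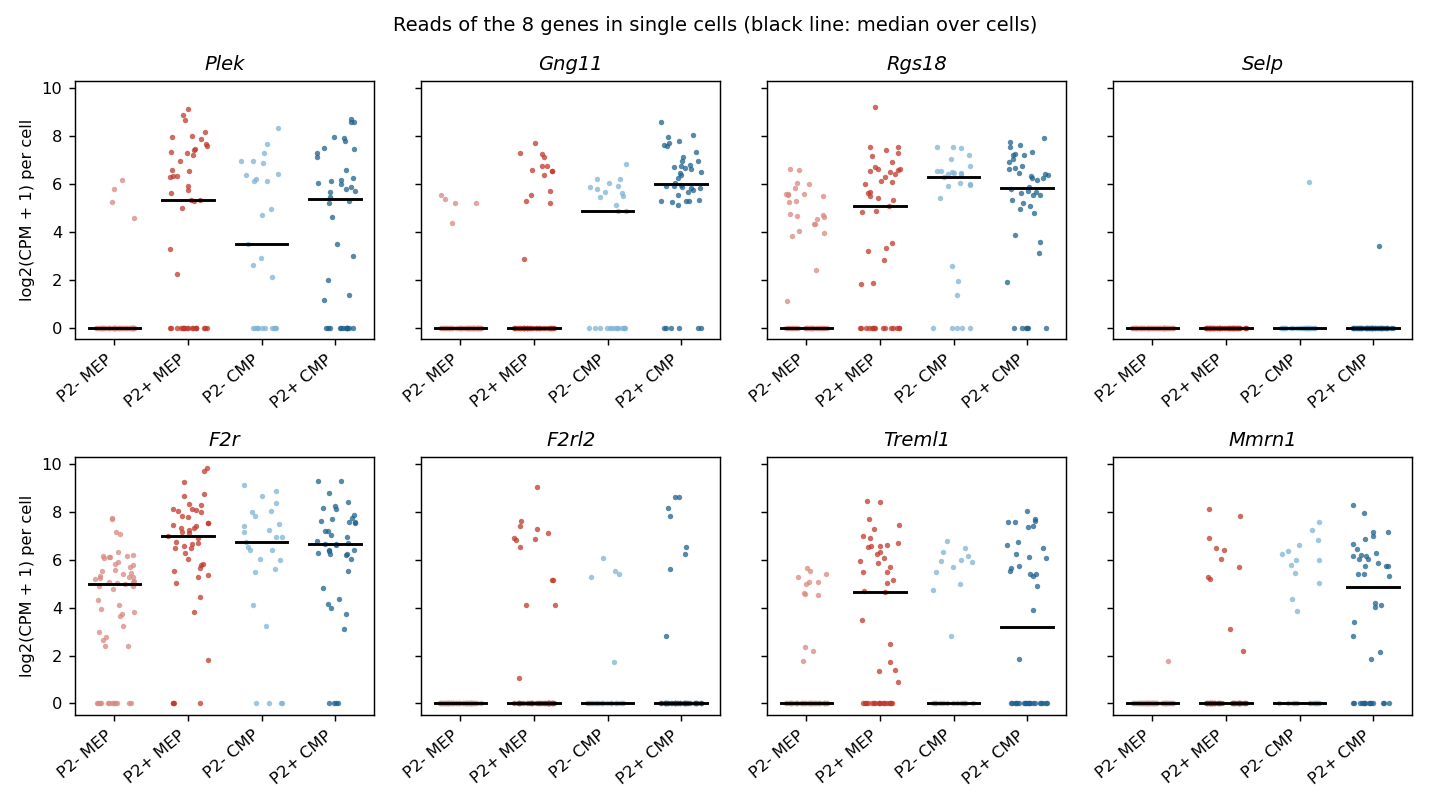
Log2(CPM + 1) of each gene (vertical axis) in every cell, 1 panel per gene and 1 column per population, with the median over cells as a black line. The median P2- MEP is at 0 for all genes but F2r, P2+ MEPs hold cells with and without reads of each gene but Selp, and Selp has reads in 2 cells.

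Between genes, levels can be set side by side only per length, as reads per kilobase of exon and 1000000 reads (RPKM). On that scale F2r was highest of the 8 in 3 populations, at 11.4, 50.2 and 40.5, while Gng11 led in P2+ CMPs, at 98.5. In P2+ MEPs the order went on with Treml1 at 42.4, Rgs18 at 30.003, Gng11 at 29.7, Plek at 20.3, F2rl2 at 14.1 and Mmrn1 at 3.69. Of these, Rgs18 and Gng11 overlapped in their intervals. In P2+ CMPs Treml1 and Rgs18 overlapped, at 36.1 and 35.8 RPKM. Mmrn1 is the longest gene by exon bases, 5868, and Gng11 the shortest, 919, so that the order by RPKM differs from that by CPM.

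**Figure D2:**
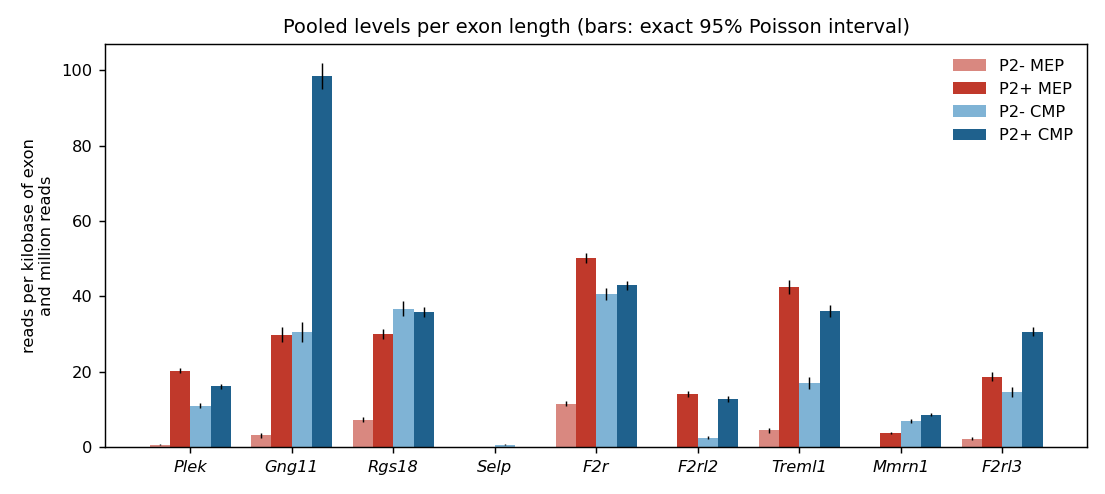
Pooled RPKM (vertical axis, from 0) of the 8 genes and F2rl3 in the 4 populations, each bar with the exact 95% Poisson interval of its reads. Gng11 is highest in P2+ CMPs, at 98.5, while F2r, F2rl2, Treml1 and Plek are highest in P2+ MEPs, although the intervals of F2rl2 in P2+ MEPs and P2+ CMPs overlap.

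Set side by side, the comparison of P2+ with P2- cells in MEPs was uniform and that in CMPs was not. A gene was counted when its pooled CPM differed at least 2-fold, among genes with at least 10 reads in both populations together. In MEPs 7 of the 7 genes with enough reads were higher in P2+ cells, against 20.4% of all 15769 genes higher and 12.5% lower. The median log2 ratio was 3.27, and over all genes 0.06. The 8 genes had been chosen for this contrast, so these counts say nothing beyond the choice. In CMPs Gng11, F2rl2 and Treml1, 3 of 8, were higher in P2+ cells and 1 was lower, Selp, against 17.4% higher and 14.7% lower of 16107 genes, with a median log2 ratio of 0.43 over the 8 genes and -0.00 over all. Without Selp, whose 2 cells decide its call, 3 of 7 were higher and 0 lower, with a median of 0.56. Plek, Rgs18, F2r and Mmrn1 stayed under 2-fold there. The same 4 populations compared the other way showed 8 of 8 genes higher in P2- CMPs than in P2- MEPs, where 25.8% of 15631 genes were higher and 15.1% lower, with a median log2 ratio of 3.78. Without Selp, at 43 reads of 1 cell against 0, these were 7 of 7 and 3.30. Between the P2+ populations, 2 of 7 genes (Gng11 and Mmrn1) were higher in CMPs and 0 were lower, against 23.2% and 16.5% of 16572 genes, with a median of -0.15. P2- MEPs therefore stood below the other 3 populations for all 7 genes other than Selp. At 4-fold, 7 of 7 were higher in P2+ MEPs (12.3% of all genes, and 7.54% lower), 1 of 8 in P2+ CMPs (9.46%, and 8.24% lower, Selp among them), 6 of 8, or 5 of 7 without Selp, in P2- CMPs over P2- MEPs (16.6%, and 7.09% lower) and 0 of 7 in P2+ CMPs over P2+ MEPs (14.3%, and 9.46% lower). The comparisons share populations and are not independent of each other.

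**Figure D3:**
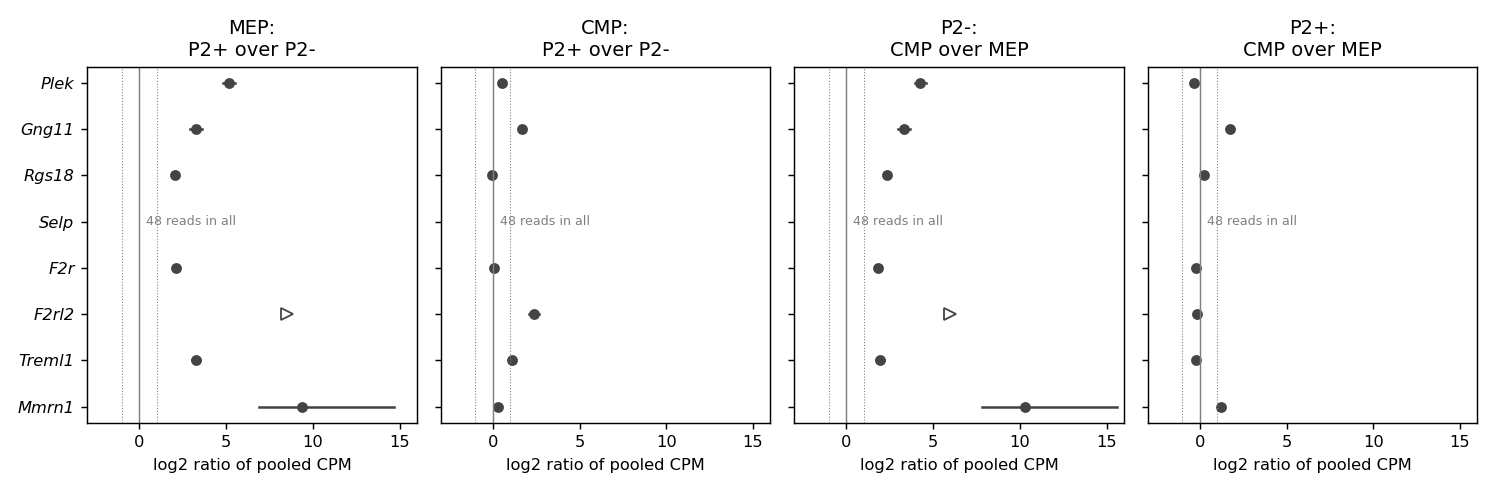
Log2 ratio of pooled CPM (horizontal axis) of each gene in the 4 comparisons, points with exact 95% intervals and open triangles for lower bounds against a population at 0 reads; the dotted lines mark 2-fold. In MEPs the 7 genes drawn lie between 2.07 and 9.37, and in CMPs between -0.03 and 2.36. Selp has no point drawn, and its value in CMPs, log2 -4.09, rests on 1 cell in each population.

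Single cells of all 4 populations held more than 1 of the genes at once. At equal depth the median cell had reads of 1, 3, 4 and 4 of the 8 genes. No P2- MEP had 4 or more, and 1 did without thinning, whereas 21 of 47, 16 of 27 and 33 of 42 cells of the others did, and 10, 2, 1 and 0 cells had none of the genes. The number ran from 0 to 7 genes in both P2+ MEPs and P2- CMPs. In P2+ MEPs 12 of the 13 cells with F2rl2 and 9 of the 10 with Mmrn1 also had Plek, which was read in 28 of all 47, while Treml1 and Plek met in 14 of 24 Treml1 cells. Over these 47 cells Spearman's rho of thinned counts was 0.53 for Plek with F2rl2, 0.50 with Rgs18 and with Mmrn1, and 0.04 with Treml1, and the median over the 21 pairs without Selp was 0.22. In the 42 P2+ CMPs Plek was read in 7 of 7 cells with F2rl2, Plek and Treml1 had a rho of 0.51, and Plek and Mmrn1, which met in 18 of 27 Mmrn1 cells, 0.05. In P2- CMPs Plek was read in 7 of 13 Mmrn1 cells, with a rho of -0.27. The median over the 21 pairs was 0.25 in P2+ CMPs, while it was 0.14 in P2- CMPs and 0.07 over 10 pairs in P2- MEPs. The cells share 1 pool, and such values from sparse counts are a description.

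**Figure D4:**
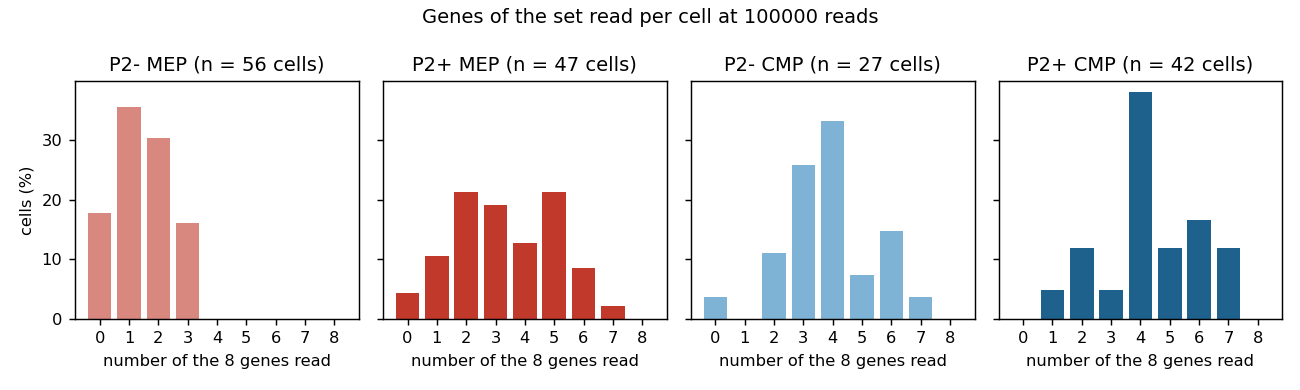
Share of cells in percent (vertical axis) by the number of the 8 genes with a read at 100000 reads per cell (horizontal axis), 1 panel per population. P2- MEPs end at 3 genes and the other populations reach 7.

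The genes whose pattern over all 172 cells was most like each member were searched among 10213 genes read in at least 10% of cells, by Spearman's rho of thinned counts. Plek itself was the nearest gene to F2r, at 0.46, and was among the 3 nearest to F2rl2 (0.49) and Rgs18 (0.44). Tuba8, which encodes an alpha tubulin, came first for Treml1 (0.53) and Alox5ap, needed for leukotriene synthesis, for Mmrn1 (0.60). For Gng11 the ribosomal entry Rn18s-rs5 came first, at 0.57, and Meis1 was also among the 3 nearest. Rn18s-rs5 made up 55808, 71824, 88354 and 106286 CPM, and with it and the mitochondrial genes left out of the denominator the log2 ratio of Gng11 was 3.30 in MEPs and 1.72 in CMPs, in place of 3.27 and 1.69. Within the 47 P2+ MEPs alone, the 3 genes nearest to Plek included Tmsb4x (0.63) and Fli1 (0.61), a regulator of megakaryocyte genes, whereas Plek and the erythroid regulator Klf1 had a rho of -0.42. In CMPs, where no such search was run, the rho of Plek with Klf1 was 0.43 in P2- cells and 0.29 in P2+ cells, the latter with Klf1 read in 2 of 42 cells, and that of Plek with Fli1 was -0.38 and 0.09. Among P2+ MEPs Thbs1, a granule gene at 0, 109, 0.764 and 10.3 CPM, was nearest to F2rl2 (0.61), and Gp1bb, of the von Willebrand factor receptor, to Mmrn1 (0.58). Over all cells such values follow population, depth of capture and cell type together, which cannot be told apart. Within 1 population depth of capture and cell type remain, and these cannot be told apart either.

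Beyond the 8 genes, 125 other genes of the platelet pathway were listed by role. The lists were chosen with earlier results of these data known, so the counts that follow are a description and carry no test. In MEPs 20 of the 125 had too few reads, and of the rest 60 (57.1%) were at least 2-fold higher in P2+ cells and 1 was lower, against 20.4% and 12.5% of all genes, with a median log2 ratio of 1.32. In CMPs 21 of 109 (19.3%) were higher, close to the 17.4% of all genes, and 9 (8.26%) were lower, beside 14.7%, with a median of 0.19. In the counts by role the 8 genes are left out. Among the receptors 9 of 9 were higher in P2+ MEPs and 5 of 9 in P2+ CMPs. The ATP-gated channel P2rx1 was at 2.97 CPM in P2- and 41.2 in P2+ MEPs. Of the 9 in MEPs, Cxcr4 rested on 1 P2+ cell (1.01 CPM), Ptgir on 2 (0.792), Adra2a on 2 (3.90) and Htr2a on 3 (1.96). The ADP receptor P2ry12 was at 0 reads in all 4. Among ITAM and ITIM receptors and their pathway 12 of 18 were higher in P2+ MEPs, Clec1b and Mpig6b through 1 cell each. The 12 include the kinase Syk (22.2 and 98.8 CPM), the adaptor Lcp2 (3.23 and 39.4) and the phospholipase Plcg2 (7.15 and 50.2). The collagen receptor Gp6 had 1 read in each MEP population. In P2+ CMPs 1 of 17 genes of this list was higher and 1 lower. Of the 6 platelet glycoproteins with enough reads 6 were higher in P2+ MEPs, with Gp9 going from 0 to 67.2 CPM, and in CMPs 3 of 7. G protein subunits, in contrast, lay near the background, with 3 of 17 higher in P2+ MEPs beside 20.4% of all genes. In P2+ CMPs 1 of 17 was higher and 2 were lower. Among genes of integrin activation and second messengers 12 of 23 were higher in P2+ MEPs. In P2+ CMPs 3 of 26 of them were higher and 1 lower. Granule genes were divided, with 9 of 17 higher in P2+ MEPs, Thbs1 and Srgn (98.6 and 331.5 CPM) among them, while the vesicle fusion gene Vamp8 was at 613 and 487. In P2+ CMPs 4 of 16 granule genes were higher and 1 lower.

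**Figure D5:**
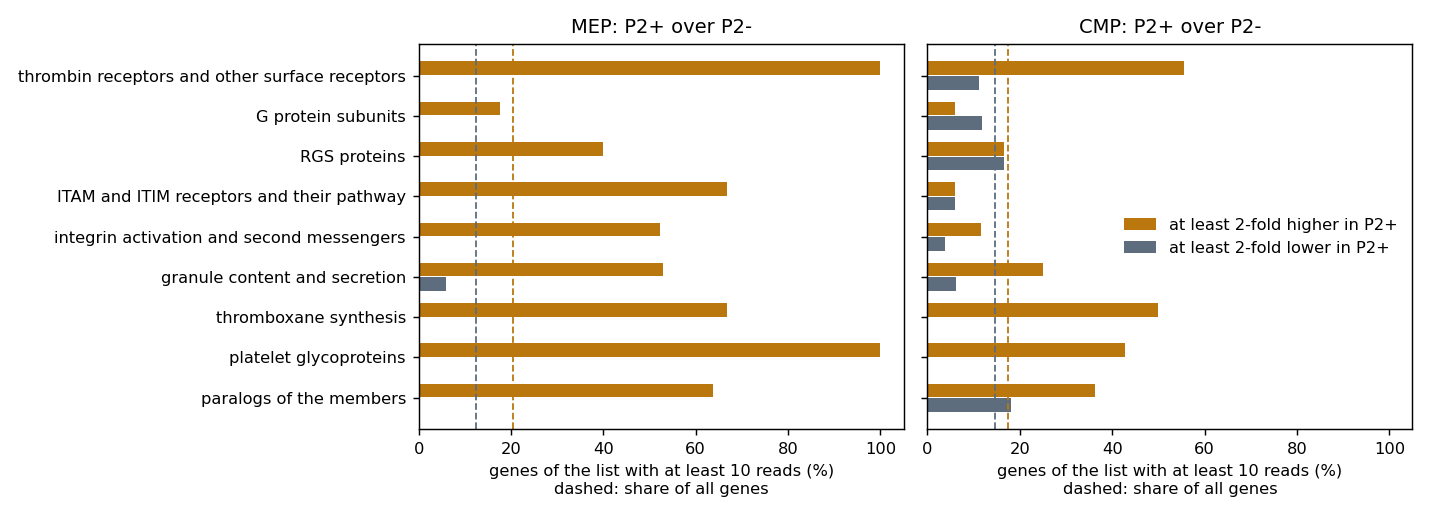
Share of the genes of each list, without the 8 genes, with at least 10 reads (horizontal axis, percent) that were at least 2-fold higher (brown) or lower (grey) in P2+ cells, in MEPs and in CMPs, with dashed lines for the share of all genes. In MEPs the G protein subunits, at 3 of 17, lie below the 20.4% of all genes and the other lists above it, the RGS proteins with 2 of 5, and in CMPs the lists fall on both sides of the 17.4%.

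Markers of other cells were looked for beside these levels. The 11 stem and multipotent markers summed to 79.5, 271.7, 935 and 1301 CPM, with 3, 3, 1 and 0 of them at 0 reads, and the 11 granulocyte/monocyte markers to 9.80, 44.2, 362.4 and 629, with 8, 4, 1 and 1 at 0. Both lists were lowest in P2- MEPs, as the 7 genes were, and their part in the differences was not tested. The 8 mast and basophil markers summed to 2.03, 6.75, 97.6 and 41.3 CPM, with 5 to 6 at 0. Of 8 macrophage markers 5 to 6 were at 0 reads in each population, C1qa, C1qb, C1qc and Adgre1 in all 4, and the list summed to between 1.27 and 10.2 CPM. The 7 hepatocyte markers summed to between 10.6 and 24.9 CPM and the 7 lymphoid markers to between 0.948 and 36.4. Among 11 endothelial markers, 1 to 4 were at 0 in each population and the list summed to 92.7, 131, 432 and 545 CPM, mostly through Egfl7, Esam and Tie1. Reads of the defining endothelial genes Kdr or Cdh5 occurred in 8 cells, by population 0, 3, 2 and 3. The P2+ MEP with 42 reads of Kdr held 29.7% of all F2rl2 reads of that population. Without the 8 cells, P2+ MEPs were at 25.9 CPM for F2rl2, 79.7 for Plek, 43.3 for Treml1 and 157 for F2r, each still above P2- MEPs, where 0 cells were left out. Against P2+ CMPs the order turned for F2rl2, then at 32.3 CPM there, and for Treml1, at 55.8. That alternative was added after the data had been seen.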

How the data were processed

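Single cells were sorted into plates and sequenced by a modified Smart-Seq2 protocol, which has no molecular identifiers. Per the labels and the article, the authors trimmed reads with Trimmomatic 0.36, aligned them with STAR 2.4.2a to GRCm38 and the ERCC spike-ins and counted them with HTSeq 0.6.1p1 over GENCODE M12 exons, ignoring strand. The deposited counts are raw, and in the deposited alignment statistics unmapped reads are a percent of each cell's total. The HTSeq rows that name no gene were left out: 25.6% of uniquely mapped reads were ambiguous between genes and 7.40% were on no gene. Cells with under 250000 reads, over 25% unmapped reads or over 15% ERCC reads were removed, as in the article. No 2 cells had identical counts.

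Counts were summed per population and divided by the reads on mouse genes (CPM). A population at 0 was set to 3 reads for a ratio, which is then a bound. Intervals at 95% were exact Poisson (levels), conditional binomial (ratios) and Clopper-Pearson (shares). For shares, cells were thinned without replacement to 100000 reads, which left out 0 cells. No test was possible with 1 pool per population. The ratio script was checked on simulated counts. Gene IDs came from the deposited annotation, and exon lengths and coordinates from GENCODE vM21 on GRCm38. Promoters came from RefSeq on GRCm38.p6.

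The members and the lists were chosen with earlier results of these data known. Genes named in the text are the 8 members, listed genes past 2-fold in any of the 4 comparisons with at least 10 CPM in the higher population, the 3 genes of highest rho with each member, over all cells or within P2+ MEPs, and the gene on either side of each member. Some genes that meet this rule are not reported here. F2rl1, P2ry12, Ppbp, Pf4, Gp6, Plek2, Gng5, Gng12, Gnb5, Vamp8, Alas2, Gm16587, Kdr, Cdh5, Cxcr4, Ptgir, Adra2a, Htr2a, Clec1b, Mpig6b and the marker genes given at 0 were named outside that rule, after their values were seen. Alternatives were equal weight per cell, DESeq2 1.42.0 size factors, edgeR 4.0.16 TMM factors, every deposited cell, leaving out the highest cell, a denominator without mitochondrial genes and Rn18s-rs5, leaving out the CMP of conflicting label, other minimums, folds and thinning depths, and leaving out the cells with Kdr or Cdh5 reads. Python 3.11.15, numpy 2.4.6, pandas 2.3.3, scipy 1.17.1, matplotlib 3.10.9 and R 4.3.3 were used.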

Additional observations from a re-analysis of the deposited data

How the results depend on the processing

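The 21 ratios of at least 2-fold between populations were recomputed under the alternatives, giving 162 values, and all 162 kept their direction and stayed at least 2-fold. Another 6 had no value without the highest cell. Of these, 2 were ratios of Selp, which was then at 0 in both CMP populations, so that its calls ended. The other 4 were the ratios of F2rl2 and Mmrn1 against P2- MEPs, which were then at 0 reads, while the higher populations were at 25.3 (P2+ MEPs) and 3.21 CPM (P2- CMPs) for F2rl2 and 15.7 and 30.6 for Mmrn1. Of the 162, 4 moved by over 1.5 times: Selp in CMPs was at log2 -3.46 with equal weight per cell and -3.28 with DESeq2 size factors, F2rl2 in CMPs at 3.07 without the highest cell, and Mmrn1 in P2- CMPs over P2- MEPs at 9.66 with DESeq2 size factors. The cause was not tested. Without the P2- CMP of conflicting label, Treml1 in P2- CMPs was at 21.8 CPM in place of 23.8. Scaling by TMM moved the median of all genes by -0.10 in P2- CMPs over P2- MEPs. With a minimum of 100 reads, fewer genes could be counted: of 11111 genes 1540 were higher (13.9%) and 616 lower (5.54%) in P2+ MEPs, of 11690 genes 1178 (10.1%) and 1072 (9.17%) in P2+ CMPs, of 11057 genes 2314 (20.9%) and 953 (8.62%) in P2- CMPs over MEPs, and of 11947 genes 2115 (17.7%) and 1218 (10.2%) in P2+ CMPs over MEPs. Selp, with 48 reads, then dropped out, and 0 of the other 7 genes were lower in P2+ CMPs. At 4-fold and the minimum of 10 reads the counts, in the same order, were 1933 and 1189, 1524 and 1327, 2600 and 1108, and 2373 and 1567, with 1 of the 8 genes higher in P2+ CMPs and 0 higher in P2+ CMPs over MEPs. No paired analysis was possible because each population is 1 pool. Depth limits Selp, Mmrn1 and F2rl2 in P2- MEPs, where 3 reads over the population are 0.0980 CPM, and unstranded counting limits Plek and Selp where they overlap other genes.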
